A study of Arabidopsis thaliana with 14 samples.

Results

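The genes described here are the 5 Arabidopsis genes LHCB4.2 (AT3G08940), LHCB4.3 (AT2G40100), RCA (AT2G39730), SPPA (AT1G73990) and HYH (AT3G17609), each read by 1 probe set among the 22746 tested. They were taken by symbol, and all 5 were found. Earlier results of the same data, chiefly the comparisons of the mutants with their wild types, led to their choice. Their values in those comparisons are therefore a description and carry no p-value.

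Transcripts were measured on Affymetrix arrays in whole 12-day-old seedlings grown on agar with 16 h of white light and 8 h of darkness. The groups were csn5a-1 and Columbia wild type (3 arrays each), CSN8 mutant and Wassilewskija wild type (2 arrays each), and CSN8 + DTT and Wassilewskija + DTT (2 arrays each). DTT commonly stands for dithiothreitol, which reduces disulfide bonds and so hampers folding of secreted proteins. Its dose and duration are not given in the labels, whose shared treatment text names no treatment. In the Wassilewskija and CSN8 set each group has 1 array in batch 1 and 1 in batch 2. The accession in which the CSN8 mutant was made and its allele are not stated either, and nothing states how many plants went into an array or that the 2 arrays of such a group came from separate cultures. The labels call the Columbia and csn5a-1 arrays biological replicates. Both mutants are named after subunits of the COP9 signalosome, which takes the ubiquitin relative RUB off cullins, the scaffolds of a large class of ubiquitin ligases. Neither CSN5A nor COP9, the gene of CSN8, had a probe set assigned to it alone here, so these transcripts give no check of the genotypes.

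LHCB4 proteins, also called CP29, are minor chlorophyll-binding antenna proteins that sit between the core of photosystem II and its large outer antenna, and Arabidopsis has several genes for them. RCA encodes Rubisco activase, which frees the carbon-fixing enzyme Rubisco of inhibitory sugar phosphates, and SPPA encodes a light-inducible protease of the thylakoid membrane. HYH is a bZIP transcription factor related to HY5 that promotes seedling development in light. In darkness the ubiquitin ligase COP1, which works together with the signalosome, removes factors of this kind.

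LHCB4.3 was higher and LHCB4.2 lower in both mutants than in their wild types, so these antenna genes of the same family lay on opposite sides. SPPA was higher in CSN8 and lay within the Columbia range in csn5a-1 but for 1 array. HYH was lower in csn5a-1 and higher in CSN8. RCA differed by little in every comparison. Values below are log2 levels made with RMA, a method that summarises the probes of a probe set after background correction and normalization. A change is a difference of log2 levels with the standard error (SE) of limma, a linear model fitted across all probe sets. The Columbia and csn5a-1 arrays look normalized apart from the other 8, so levels are compared within a set only and levels of different genes are not set against each other.

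LHCB4.3 stood at 9.32, 9.14 and 9.27 in csn5a-1 arrays 1 to 3, against 8.11, 6.70 and 6.71 in Columbia arrays 1 to 3. All csn5a-1 arrays were above all Columbia arrays, and the Columbia arrays were the more spread (SD 0.09 in csn5a-1, 0.81 in Columbia), since Columbia array 1 was high. The change was 2.07 ± 0.36, or 4.2-fold, and 1.83 to 2.54 when any 1 array was left out. In batches 1 and 2 its level was 10.74 and 10.53 in CSN8, against 7.90 and 7.50 in Wassilewskija. The change was 2.94 ± 0.34 (7.65-fold), with 2.84 and 3.03 within the batches. With DTT the levels were 10.20 and 10.61 in CSN8 + DTT, against 8.53 and 7.54 in Wassilewskija + DTT. The groups did not overlap here either, and the change of 2.37 ± 0.34 was unequal between batches, at 1.67 in batch 1 and 3.07 in batch 2.

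LHCB4.2 was at 11.18, 11.42 and 11.35 in csn5a-1, against 12.38, 12.07 and 12.14 in Columbia. The groups lay 0.65 apart at their nearest arrays, and the change of -0.88 ± 0.13 corresponds to a level 1.84-fold lower in csn5a-1. In batches 1 and 2 CSN8 was at 10.11 and 10.53 and Wassilewskija at 11.25 and 12.15. CSN8 + DTT was at 9.28 and 9.94 and Wassilewskija + DTT at 10.90 and 11.90. Every mutant array lay below every wild-type array of this set, and in each of the 4 groups the array of batch 2 was above that of batch 1, by 0.42 to 1.01. The change was -1.38 ± 0.44 without DTT (-1.14 and -1.62 within batches 1 and 2) and -1.79 ± 0.44 with DTT (-1.62 and -1.96), or 2.61-fold and 3.46-fold lower. With the batch as a block the SE of both changes was 0.18. LHCB4.1 (AT5G01530), the remaining family member, is not among the genes described here and was tested. A naming rule used in earlier work ranked it with LHCB4.2, LHCB4.3 and RCA and named those that passed. That LHCB4.1 did not pass is therefore tied to its absence from the genes described and is no independent result. Its change was -0.14 ± 0.11 in csn5a-1 (limma adjusted p = 0.372), -0.33 ± 0.15 in CSN8 (adjusted p = 0.265) and -0.54 ± 0.15 in CSN8 + DTT (adjusted p = 0.107), and none passed. The csn5a-1 and Columbia ranges of LHCB4.1 overlapped. In both CSN8 comparisons its mutant arrays lay below the wild-type arrays, where 47.7% and 51% of all probe sets did not overlap in either direction.

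**Figure D1:**
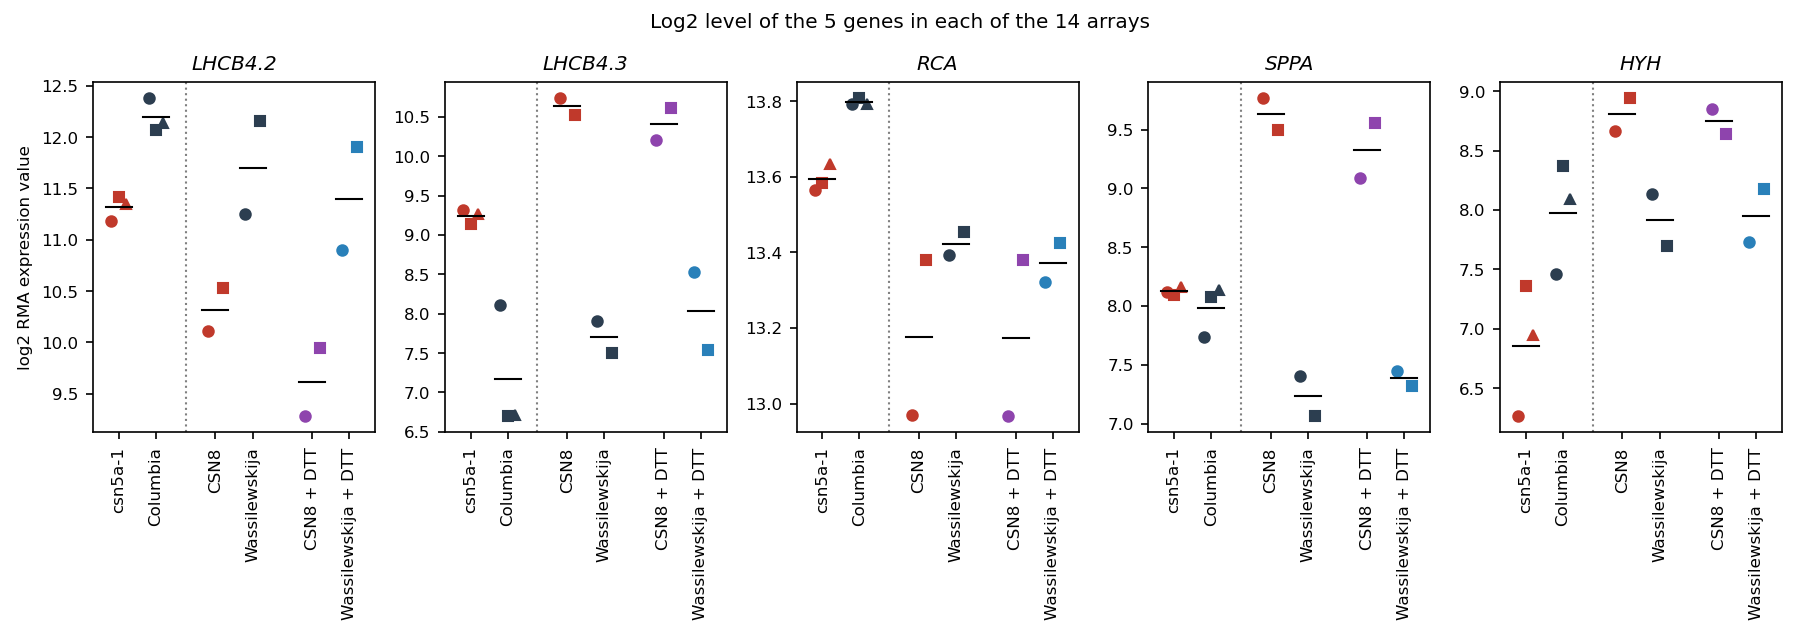
Log2 RMA level (vertical axis, a separate range in each panel) of LHCB4.2, LHCB4.3, RCA, SPPA and HYH in every array, with each mutant left of its wild type. Circles, squares and triangles are replicates 1, 2 and 3 (batches 1 and 2 right of the dotted line, which separates the sets normalized apart), and bars are group means; LHCB4.3 lies higher and LHCB4.2 lower in all mutant arrays than in the wild-type arrays of their set.

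SPPA was higher in CSN8 in both batches, with and without DTT. It was at 9.77 and 9.50 in CSN8 in batches 1 and 2, against 7.41 and 7.06 in Wassilewskija. In CSN8 + DTT it was at 9.09 and 9.56, against 7.45 and 7.32 in Wassilewskija + DTT. All 4 CSN8 arrays were above all 4 Wassilewskija arrays, and the changes were 2.40 ± 0.22 (5.28-fold; 2.36 and 2.44 within batches) and 1.94 ± 0.22 (3.84-fold; 1.64 and 2.24). In csn5a-1 its level was 8.12, 8.10 and 8.16, against 7.74, 8.07 and 8.13 in Columbia, and the groups overlapped. The change was 0.14 ± 0.13, with a 95% interval of -0.16 to 0.45. Whether the effects of the mutants on SPPA differ was not tested, since their arrays look normalized apart.

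HYH was at 6.26, 7.36 and 6.94 in csn5a-1, against 7.46, 8.37 and 8.09 in Columbia. The groups did not overlap but came within 0.10 of each other, and the change was -1.12 ± 0.32, or 2.17-fold lower. With the replicate number as a block its SE was 0.11, though the labels do not say that equally numbered arrays belong together. In batches 1 and 2 HYH was at 8.66 and 8.94 in CSN8, against 8.13 and 7.70 in Wassilewskija, and at 8.85 and 8.64 in CSN8 + DTT, against 7.73 and 8.17 in Wassilewskija + DTT. All CSN8 arrays were above all Wassilewskija arrays, with changes of 0.89 ± 0.23 (1.85-fold; 0.53 and 1.25 within batches) and 0.79 ± 0.23 (1.73-fold; 1.12 and 0.47). HY5 (AT5G11260), the relative of HYH, is not analysed here.

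RCA was at 13.57, 13.58 and 13.63 in csn5a-1, against 13.79, 13.81 and 13.79 in Columbia. The groups did not overlap, and the change was -0.20 ± 0.09 (95% interval -0.42 to 0.01). On each of these 6 arrays RCA ranked 2 from the top among all 22746 probe sets. Quantile normalization over all 14 arrays gives every array the same value at a given rank. The change of 0 that it left for RCA was therefore fixed by these ranks and says nothing about RCA. How far the upper end of the array's scale limits this probe set was not tested. In batches 1 and 2 RCA was at 12.97 and 13.38 in CSN8, against 13.39 and 13.45 in Wassilewskija, and at 12.97 and 13.38 in CSN8 + DTT, against 13.32 and 13.42 in Wassilewskija + DTT. The lowest levels were those of both batch 1 arrays of the mutant. The changes were -0.25 ± 0.20 and -0.20 ± 0.20, and within batches they were -0.42 and -0.07 without DTT and -0.35 and -0.04 with DTT. Without the CSN8 array of batch 1 the change without DTT was -0.04.

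Counted over the 5 genes, the groups did not overlap for 4 in csn5a-1, for all 5 in CSN8 and for 4 in CSN8 + DTT. Over all probe sets 48.8%, 47.7% and 51% did not overlap in these comparisons, and 32.9%, 5.83% and 4.13% passed limma at an adjusted p under 0.05. Nothing is read from the members' counts, since the members were chosen on these comparisons.

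**Figure D2:**
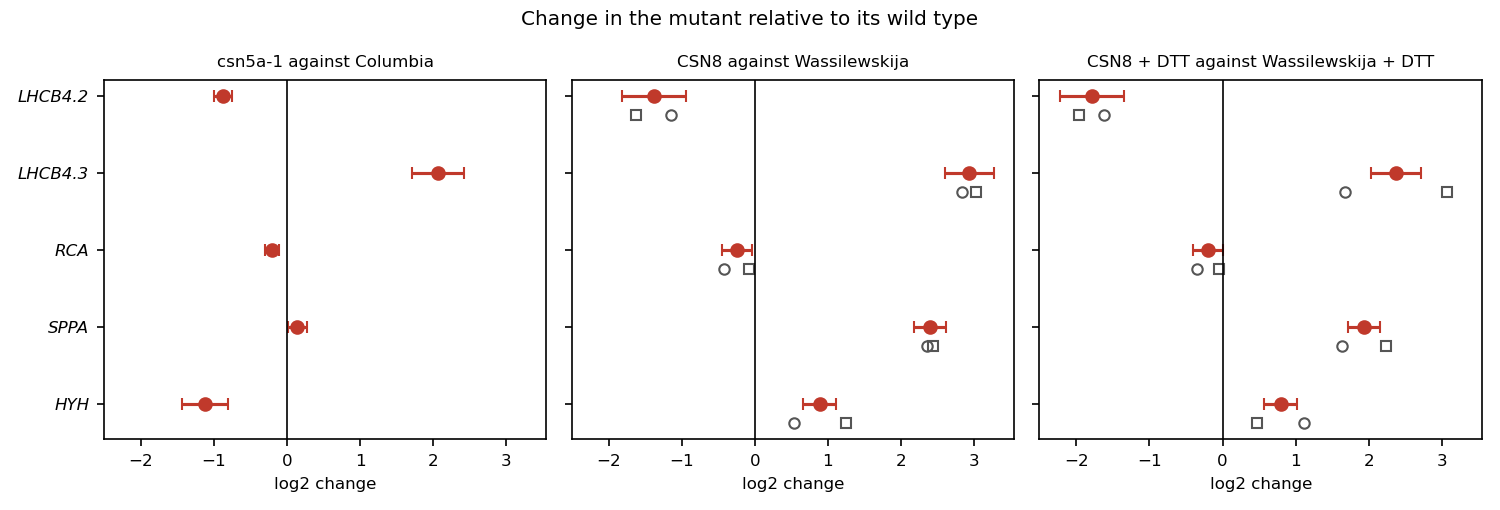
Log2 change of the 5 genes in each mutant relative to its wild type (horizontal axis), with filled points for the fitted change and bars for its SE. Open circles and squares are the changes within batches 1 and 2; LHCB4.3 is right of 0 and LHCB4.2 left of 0 in all 3 panels, while HYH is at -1.12 in csn5a-1 and 0.89 in CSN8.

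Ordered by mean level within the set of 8 arrays, LHCB4.3 ran from CSN8 (10.64 ± 0.15, SD, n = 2) over CSN8 + DTT (10.41 ± 0.29) and Wassilewskija + DTT (8.04 ± 0.70) to Wassilewskija (7.70 ± 0.29). SPPA and HYH had the same order of groups. For these 3 genes the ranges of neighbouring groups overlapped except between CSN8 + DTT and Wassilewskija + DTT. LHCB4.2 ran from Wassilewskija (11.70 ± 0.64) over Wassilewskija + DTT (11.40 ± 0.71) and CSN8 (10.32 ± 0.30) to CSN8 + DTT (9.61 ± 0.47), and here only the ranges of the wild-type groups overlapped. RCA followed the same order as LHCB4.2, with overlapping ranges between all neighbours. LHCB4.3 varied by 3.24 over these 8 arrays and by 2.62 over the 6 Columbia and csn5a-1 arrays, more than 97.6% and 96.8% of probe sets did. RCA varied by 0.49 and 0.24, more than 25.6% and 7.50% of probe sets did. SPPA varied more than 95.6% of probe sets in the set of 8 arrays but more than 28.0% in the other set. These ranges include the differences between mutant and wild type on which the members were chosen, so nothing is read from the shares.

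The DTT comparisons asked whether these transcripts differed with the DTT label within a genotype. In Wassilewskija HYH differed by 0.04 ± 0.23, SPPA by 0.15 ± 0.22, LHCB4.2 by -0.30 ± 0.44 and RCA by -0.05 ± 0.20 with DTT, and limma gave an adjusted p of 0.999 for each. In CSN8 SPPA differed by -0.31 ± 0.22 (limma adjusted p = 0.729), LHCB4.3 by -0.23 ± 0.34 (0.918), HYH by -0.06 ± 0.23 (0.978) and RCA by -0.00 ± 0.20 (0.999). None of the 4 genes tested in either genotype passed in limma, and none had an unadjusted p under 0.05. None passed with limma's trended robust option or with the batch as a block either. In each genotype the gene with the smallest p among the LHCB4 genes and RCA was left out of these tests. For the rest of these genes, not passing therefore followed in part from that choice. Over all probe sets 0.365% passed in Wassilewskija, 1.29% in CSN8 and 2.34% averaged over both genotypes.

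Averaged over both genotypes, the difference with DTT was -0.01 for HYH (95% interval -0.40 to 0.38), -0.08 for SPPA (-0.44 to 0.29), 0.06 for LHCB4.3 (-0.51 to 0.62) and -0.03 for RCA (-0.37 to 0.32). These intervals leave room for moderate differences in either direction. LHCB4.2 was lower with DTT in all 4 pairs of arrays of the same batch. The differences were -0.83 and -0.59 in batches 1 and 2 of CSN8 and -0.35 and -0.25 in Wassilewskija. In CSN8, where the levels with DTT (9.28 and 9.94) were below those without (10.11 and 10.53), the change was -0.71 ± 0.44, or ± 0.18 with the batch as a block. Averaged over both genotypes it was -0.50 ± 0.31, or ± 0.13 with the block, and it lay between -0.25 (without the Wassilewskija + DTT array of batch 1) and -0.76 (without that of batch 2). No p is given for these changes, because LHCB4.2 had the smallest p among the LHCB4 genes and RCA there and a naming rule used in earlier work would have picked it. For the same reason nothing is read from the agreement of the 4 pairs, the separate levels in CSN8 or the smaller SE with the block. Without the CSN8 + DTT array of batch 1 the change in CSN8 was -0.38. LHCB4.3, picked in the same way in Wassilewskija, was 0.34 ± 0.34 higher with DTT, at 8.53 and 7.54 against 7.90 and 7.50, and it was -0.16 without the Wassilewskija + DTT array of batch 1.

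For the difference between the DTT effects of CSN8 and Wassilewskija, limma gave 0 of 22746 probe sets past the threshold (0%), with 662 at an unadjusted p under 0.05. The trended robust option also gave 0. The estimates were -0.46 ± 0.31 for SPPA, -0.41 ± 0.62 for LHCB4.2, -0.09 ± 0.32 for HYH and 0.05 ± 0.29 for RCA, each with a limma adjusted p of 1. LHCB4.3 (-0.56 ± 0.48) had the smallest p among the LHCB4 genes and RCA here and was left out of these tests. The estimate for LHCB4.2 was 0.04 without the Wassilewskija array of batch 1 and 0.10 without the Wassilewskija + DTT array of batch 2. Of 9 root hair markers in the list, 2 had a probe set assigned to them alone. These, EXPA7 and EXPA18, and the root gene PYK10 were also lower with DTT. Averaged over genotypes PYK10 changed by -2.09 ± 0.22 (limma adjusted p = 0.00841), EXPA18 by -1.39 ± 0.16 (0.0106) and EXPA7 by -1.37 ± 0.28 (0.0633). Summed, the root hair markers reached log2 levels of 5.07 to 5.26 in CSN8 + DTT, 5.93 to 6.82 in CSN8, 5.50 to 5.90 in Wassilewskija + DTT and 7.25 to 7.29 in Wassilewskija. Their part in the values above was not tested, and in RNA of whole seedlings fewer cells of a type and less RNA per cell cannot be told apart.

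**Figure D3:**
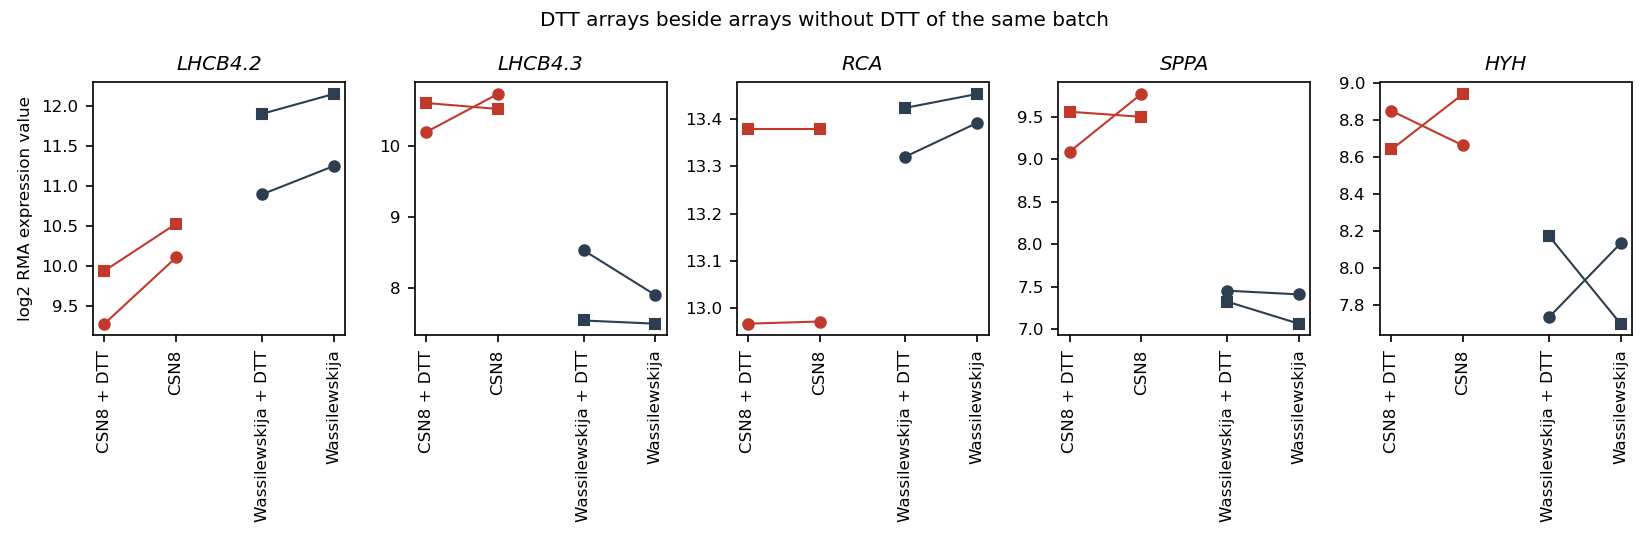
Log2 RMA level (vertical axis, a separate range in each panel) of the 5 genes with DTT (left end of each line) and without DTT (right end) in CSN8 and Wassilewskija. Each line joins the arrays of 1 batch (circles batch 1, squares batch 2); LHCB4.2 is lower with DTT on all 4 lines, by 0.83 and 0.59 in CSN8 and 0.35 and 0.25 in Wassilewskija.

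The other genes of these pathways were taken from 7 lists matched by symbol. The lists hold 368 loci, of which 43 had a probe set of their own, and 34 remained after 4 misplaced loci and the 5 members were left out. Most genes of these pathways therefore had no probe set assigned to them alone, and the counts below leave them out. Whether probe sets without an assigned gene read some of them is not known here. A gene is called measured below if a probe set was assigned to it alone. Of the loci in each list, 3 of 21 were measured for antenna proteins, 9 of 54 for photosystems, 9 of 35 for electron transport, 6 of 42 for carbon fixation, 9 of 42 for chlorophyll, 5 of 51 for plastid proteases and 2 of 123 for light signalling. In csn5a-1 10 of the 34 fell and 5 rose in limma, or 29.4% and 14.7%, where 16.8% of all probe sets fell and 16% rose. The median change was -0.17 over the 34 genes and -0.04 over all probe sets. With any 1 array left out, 7 to 11 fell and 3 to 5 rose.

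Among the 9 photosystem genes 3 fell in csn5a-1 and none rose, and all 9 changes were below 0, where 55.2% of all probe sets were lower in csn5a-1. HCF101, an iron-sulfur scaffold protein needed for photosystem I, fell by 0.83 on the log2 scale (SE 0.11, limma adjusted p = 0.00128). The photosystem II genes PSBY (-0.47 ± 0.11) and PSB27 (-0.43 ± 0.10) fell too. Of 9 genes of electron transport, 3 fell and 2 rose. CRR28 (-0.76 ± 0.14) and CRR22 (-0.44 ± 0.11), whose products edit plastid transcripts, and NdhS (-0.56 ± 0.10), a subunit of the plastid NAD(P)H dehydrogenase-like complex, fell. CRR28 was at 4.49 to 4.92 in csn5a-1 and 5.33 to 5.56 in Columbia, and CRR22 at 5.05 to 5.16 and 5.43 to 5.70. Both were thus dim, below the medians of these arrays (5.87 to 5.98). PGRL1B (1.01 ± 0.18), of cyclic electron flow, rose, as did CRR42 (0.50 ± 0.16). CRR42 no longer passed when any array other than csn5a-1 array 1 was left out. CRR22 no longer passed without Columbia array 2, csn5a-1 array 2 or csn5a-1 array 3.

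In the carbon fixation list 1 of the 3 remaining measured genes fell, the photorespiratory hydroxypyruvate reductase gene HPR (-0.46 ± 0.10). The Calvin cycle gene SBPASE changed by -0.31 ± 0.10 and missed the threshold (limma adjusted p = 0.0505), and PRK differed by -0.21. Of 9 genes of chlorophyll synthesis and breakdown 3 fell and 1 rose. The gene that rose was PORB, which encodes a protochlorophyllide reductase that needs light, at 9.07, 9.43 and 9.70 in csn5a-1, against 7.40, 7.23 and 7.65 in Columbia. Its change of 1.97 ± 0.18 (limma adjusted p = 0.000255) was the largest of the 34. NOL (chlorophyll b reductase, -0.67 ± 0.13), GSA1 (-0.51 ± 0.13) and CHLM (-0.35 ± 0.10), both of chlorophyll synthesis, fell. CHLM passed only with all arrays or without csn5a-1 array 1, and GSA1 did not pass without csn5a-1 array 2. The plastid protease gene CLPP4 rose by 0.73 ± 0.16. FHL, whose product helps to bring phytochrome A into the nucleus, rose by 1.74 ± 0.44 (adjusted p = 0.0205), with levels of 6.07, 4.23 and 4.48 in csn5a-1 and 2.96, 3.19 and 3.42 in Columbia. The medians of these arrays were 5.87 to 5.98, so FHL was dim on all but csn5a-1 array 1. Columbia array 1 or 2 left out ended the call of FHL.

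In CSN8 1 of the 34 genes rose and none fell in limma, or 2.94% and 0%, where 2.84% of all probe sets rose and 2.99% fell. At an unadjusted p under 0.05 there were 4 higher and 2 lower, against 21.4% of all probe sets in either direction. The gene was SPP (AT5G42390), the stromal processing peptidase that removes transit peptides from imported plastid proteins, with a change of 1.16 ± 0.17 (limma adjusted p = 0.0131; 0.90 and 1.42 within batches). Its level was 8.82 and 9.18 in CSN8, against 7.92 and 7.76 in Wassilewskija. Its call was lost without either Wassilewskija array and when only CSN8 and Wassilewskija were fitted. With the batch as a block 3 of the 34 passed, all higher: SPP, CRR42 (1.40 ± 0.19) and HCF101 (0.62 ± 0.15, adjusted p = 0.0438 with the block and 0.0652 without). With this block 11.9% of all probe sets passed. The median change of the 34 genes was 0.04, against 0.02 over all probe sets.

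In CSN8 + DTT none of the 34 passed in limma, also with the trended robust option, where 2.08% of all probe sets rose and 2.05% fell. At an unadjusted p under 0.05 there were 7 (2 higher, 5 lower), against 18.8% of all probe sets. With the batch as a block 3 passed, and so did 8.99% of all probe sets. CRR42 (1.06 ± 0.19) and SPP (0.77 ± 0.17) were higher and PSAN, a photosystem I subunit gene, was lower (-1.08 ± 0.23, adjusted p = 0.035). PSAN differed by -1.27 and -0.90 within batches 1 and 2. Its change in CSN8 without DTT was -0.86 (-1.16 and -0.55 within batches) and did not pass (limma adjusted p = 0.0582 with the block). In the DTT comparisons within a genotype, averaged and as a difference, none of the 34 passed in limma, also with the block or the trended robust option. At an unadjusted p under 0.05 there were 3 in CSN8 (11.3% of all probe sets), 3 averaged over genotypes (13.9%), and none in Wassilewskija (6.52%) or in the difference (2.91%). The smallest p in the averaged comparison was that of HEMA2, of tetrapyrrole synthesis (0.75 ± 0.23, limma adjusted p = 0.195). In batches 1 and 2 HEMA2 differed with DTT by 1.41 and 1.01 in CSN8, and by -0.18 and 0.74 in Wassilewskija.

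**Figure D4:**
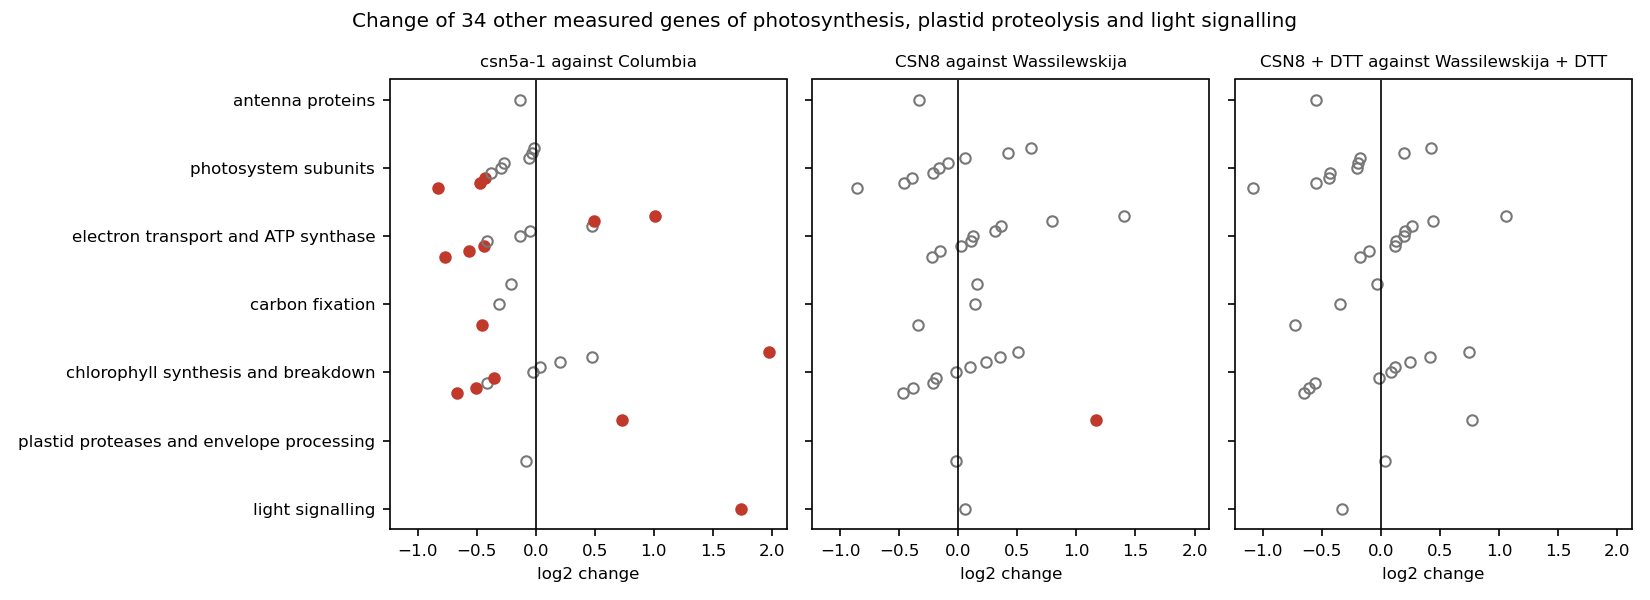
Log2 change (horizontal axis) of the 34 other measured genes, by list, in each mutant relative to its wild type. Filled red points passed limma at an adjusted p under 0.05 and open points did not; in csn5a-1 10 are filled below 0 and 5 above, in CSN8 1 above, and in CSN8 + DTT none.

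Some array-wide measures moved with the groups or with the batch. The actin control probe sets had a 3′ minus 5′ signal of 3.93 to 4.95 in csn5a-1 and 3.35 to 3.67 in Columbia, and the median of 69 plastid-encoded probe sets was 8.09 to 9.91 in csn5a-1 and 9.57 to 9.70 in Columbia. The 2 measured seed markers of 10, LEA4-5 and M17, summed to log2 levels of 6.76 to 7.0 in csn5a-1 and 10.90 to 11.24 in Columbia. In batches 1 and 2 of the other set these seed markers reached 7.20 and 6.77 in CSN8 and 6.56 and 9.18 in Wassilewskija. With DTT they reached 6.15 and 8.53 in CSN8 and 6.70 and 8.94 in Wassilewskija, so batch 2 was higher in all groups but CSN8. The GAPDH control probe sets of this set had a 3′ minus 5′ signal of 1.67 in CSN8 of batch 1 against 0.25 to 0.62 in the other 7 arrays. Their part in the results was not tested. Without CSN8 of batch 1 the changes in CSN8 were 2.83 for LHCB4.3, -1.17 for LHCB4.2, 2.27 for SPPA and 1.03 for HYH. The summed root hair markers were at 5.50 to 6.09 in csn5a-1 and 5.31 to 5.34 in Columbia. EXPA7 rose by 0.70 ± 0.21 (limma adjusted p = 0.0394) while EXPA18 differed by 0.39 ± 0.13 (0.0542). Both genes were dim, below the medians of these arrays (5.87 to 5.98). The root gene PYK10 lay on the other side, with a change of -0.16 ± 0.11 (limma adjusted p = 0.292) and overlapping ranges. The guard cell gene FMA was at 5.90 to 6.28 in csn5a-1 and 5.46 to 5.83 in Columbia (adjusted p = 0.103). The part of these markers was not tested. Of 5 pollen and anther markers none had a probe set assigned to it alone.

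The genes whose pattern was most like each member's were sought among 1000 named genes that varied, with each gene centred on its mean in each set, as Pearson's r over 14 arrays. The arrays share their groups and batches, so r is a description. For LHCB4.3 they were ATMND1 (r = 0.943), FU (0.942) and ATSMC2 (0.936), with r of 0.87 or more within each set. For LHCB4.2 they were UNG (0.957), MBAC1 (0.946) and WES1 (0.927). For HYH they were UGT71B1 (0.914), IMP4 (0.912) and ATJ1 (0.860). For SPPA they were GH9B11 (0.984), DFR (0.950) and LPR1 (0.943), of which none followed SPPA closely within the Columbia and csn5a-1 arrays (r = 0.43, -0.14 and -0.22). RCA varied too little to be included.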

How the data were processed

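The deposited table holds log2 expression values of 22810 probe sets on 14 arrays, which the authors made with RMA (submitters' processing notes); the software version is not given in the sources used here. Sorted values of 2 arrays differed by a median of 0.47 to 0.53 between the 6 Columbia and csn5a-1 arrays and the other 8, and by at most 0.08 within them, so each set was fitted alone. After 64 control probe sets were left out, 22746 were tested. The platform annotation gave exactly 1 gene for 13513, several for 503 and no gene for 8730; the RefSeq gene table matched 13436. Array number limits the precision.

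Changes were fitted with limma 3.58.1 in R 4.3.3 (group means, eBayes, two-sided) and adjusted by Benjamini-Hochberg over all probe sets; adjusted p under 0.05 passed. With 2 arrays a group, the 4 Wassilewskija and CSN8 groups shared 1 estimate of the spread. P-values measure the spread between arrays, which may be technical. The code was tested on simulated data.

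The 5 members and 7 gene lists were chosen with earlier results of these data known. Pathway loci were matched by symbol or synonym, and 4 were dropped as misplaced (2 in carbon fixation, 2 in plastid proteases). Named were the members, up to 4 passing genes with the largest change per list (else the smallest p, given for the averaged DTT comparison), and for each member the 3 genes with the highest r among those with an SD of at least 0.25. CRR22, SBPASE and PRK, and HCF101, CRR42, NdhS and PSAN in the CSN8 comparisons, are named outside this rule, after their values were seen. Batches 1 and 2 are named by the labels, and arrays of the same batch deviated together from their group means (r of 0.07 to 0.57). No sequence is shown, and promoter motifs were not analysed here.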

Additional observations from a re-analysis of the deposited data

Results flagged for a closer look

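HYH lay on opposite sides of the wild type in the mutants. Its log2 change was -1.12 in csn5a-1 against Columbia, with all 3 csn5a-1 arrays below all 3 Columbia arrays, and 0.89 in CSN8 against Wassilewskija, with both CSN8 arrays above both Wassilewskija arrays. The difference between these changes was not tested, because the sets of arrays look normalized apart, and HYH was chosen with these values known.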

How the results depend on the processing

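The alternatives were quantile normalization over all 14 arrays, median centring, a minimum mean log2 value of 5, limma's trended robust option, the replicate number or batch as a block, a fit of only the 2 groups compared, and leaving out each array. No member's tested DTT change passed under any of them, though members picked on a DTT comparison were left out of its tests. No member's change in a mutant comparison turned direction except that of RCA in CSN8 + DTT. It was 0.01 without the CSN8 + DTT array of batch 1. In csn5a-1 quantile normalization set the change of RCA to 0, as its equal rank on those arrays requires. The counts of probe sets past the threshold moved most. With the batch as a replicate block they were 2706 for CSN8 (1327 without), 2045 for CSN8 + DTT against Wassilewskija + DTT (940), 186 for Wassilewskija + DTT (83), 705 for CSN8 + DTT against CSN8 (293) and 1068 for DTT averaged (533). With only the 2 groups compared they were 289, 624, 2 and 3 in the first 4 of these, and the trended robust option gave 132 for Wassilewskija + DTT. Fewer arrays and a spread not shared between groups come with the fit of 2 groups. Of the 34 list genes 3 passed with the replicate block in CSN8 and 3 in CSN8 + DTT against Wassilewskija + DTT, against 1 and 0 without it, and 0 passed in CSN8 with only the 2 groups compared. In the csn5a-1 comparison equally numbered arrays had r of 0.04 to 0.07, against -0.098 to 0.064 for the other pairs. Whether they share more than a number is not stated. With the replicate block 6925 probe sets and 14 of the 34 genes passed, against 7474 and 15.

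Leaving out 1 array gave 5421 to 7221 probe sets in csn5a-1, 408 to 1035 in CSN8, 103 to 806 in CSN8 + DTT against Wassilewskija + DTT, 1 to 63 for Wassilewskija + DTT, 2 to 246 for CSN8 + DTT against CSN8, 147 to 449 for DTT averaged and 0 to 9 for the difference between the DTT effects. Of the 34 genes 11 to 15 passed in csn5a-1, 0 to 1 in CSN8 and 0 in the others. Where a group was left with 1 array, that array was assumed to vary like the other groups. Scaling shifted the median change of all probe sets by at most 0.03. Each member had 1 probe set, so the choice of probe set was not varied.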

Other observations

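For each of the 5 genes the 6 nearest measured loci on the chromosome, 3 on each side, were looked up after the members' values were known. In CSN8 1 of these 30 loci passed in limma (3.33%, against 5.83% of all probe sets). It was AT2G39710, near RCA, with a change of 1.17. The loci near SPPA changed by -0.54 to 0.56 and those near LHCB4.3 by -0.30 to 0.44. In CSN8 + DTT against Wassilewskija + DTT none of the 30 passed (4.13% of all probe sets). In csn5a-1 13 of the 30 passed (43.3%, against 32.9% of all probe sets): 5 near SPPA, 3 near HYH, 2 near LHCB4.3, 2 near RCA and 1 near LHCB4.2. Some lay on the same side as the member: AT3G17520 (-3.90) and AT3G17640 (-0.89) near HYH, AT3G08920 (-0.64) near LHCB4.2 and AT2G39710 (-2.12) near RCA. Both loci that passed near LHCB4.3, AT2G40020 (-1.43) and TBL28 (-0.83), were lower, while LHCB4.3 was higher. BSH (0.87) near HYH and AT2G39725 (0.80) near RCA were higher, while HYH and RCA were lower. All 5 loci that passed near SPPA were lower, while SPPA itself differed by 0.14.

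HCF101, of photosystem I assembly, had a change of -0.83 in csn5a-1 and 0.62 in CSN8. The change in CSN8 passed with the batch as a block and not without it. In CSN8 + DTT against Wassilewskija + DTT it was 0.20 (0.17 and 0.23 within batches) and passed neither way. NdhS (-0.56 and 0.31) and CRR22 (-0.44 and 0.79) also lay on opposite sides in csn5a-1 and CSN8 without overlap, but passed in csn5a-1 only. The differences between the changes in csn5a-1 and CSN8 were not tested.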
